A study of Rattus norvegicus with 6 samples.

Results

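The cluster of miR-191 and miR-425 comprises 2 microRNA hairpins that lie next to each other in the rat genome, and each hairpin gives a 5p and a 3p mature strand. The members were taken by name and not by a measured value, though earlier results of these data were known. They are rno-miR-191a-5p, rno-miR-191a-3p, rno-miR-425-5p and rno-miR-425-3p, which are 4 of the 758 rat microRNAs on the array. They were read on 6 single-colour Agilent microRNA arrays, of which 3 held RNA from arterial plasma and 3 RNA from venous plasma of the same 3 animals. All rats were male Sprague-Dawley animals, 10 weeks old and without any treatment. Arterial blood came from the abdominal aorta and venous blood from the postcava. The marker lists used here hold no microRNA that marks either vessel, so the vessel labels were not checked against the values.

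A microRNA is cut from its hairpin as a duplex, and mostly a single strand of that duplex is kept in the Argonaute protein, where it pairs through its seed with target transcripts. The miR-191 and miR-425 hairpins are processed from a shared primary transcript of the Dalrd3 gene, and the 5p strand is the prevailing product of both in most mammalian tissues. miR-191-5p is abundant in blood cells and has served as a reference for PCR of circulating microRNAs, and miR-425-5p represses the transcript of atrial natriuretic peptide, a cardiac hormone that lowers blood pressure.

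The mature sequences of all 4 members are given because the array separates them by sequence alone. They were taken from RefSeq (assembly GRCr8) and are written with the seed, bases 2 to 8, in capitals.
rno-miR-191a-5p: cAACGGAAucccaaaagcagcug
rno-miR-191a-3p: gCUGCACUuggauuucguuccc
rno-miR-425-5p: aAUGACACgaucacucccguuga
rno-miR-425-3p: aUCGGGAAuaucguguccgcc
In GRCr8 these strands lie on the plus strand at chr8:118142641-118142663, chr8:118142683-118142704, chr8:118143094-118143116 and chr8:118143135-118143155, in the same order. The 4 seeds all differ. Of the 758 names on the array, 685 matched a mature sequence in RefSeq, and among these no other microRNA had the seed of rno-miR-191a-5p, rno-miR-425-5p or rno-miR-425-3p. The seed of rno-miR-191a-3p was shared with rno-miR-17-2-3p, which was detected on 0 arrays.

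The hairpins are shown to place each mature strand, in capitals, within its precursor.
Mir191: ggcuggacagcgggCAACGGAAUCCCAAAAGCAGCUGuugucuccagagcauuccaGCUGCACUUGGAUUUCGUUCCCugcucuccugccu
Mir425: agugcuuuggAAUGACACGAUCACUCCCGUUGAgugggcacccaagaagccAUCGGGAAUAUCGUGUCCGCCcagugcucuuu
Mir191 spans chr8:118142627-118142717 (91 bases) and Mir425 spans chr8:118143084-118143166 (83 bases), with 366 bases between them. Both fall within the span of Dalrd3 and run on its strand. A further hairpin on the opposite strand of the miR-191 locus gives rno-miR-191b, with the sequence gAACGAAAuccaagugcagcu at chr8:118142682-118142702. It overlaps rno-miR-191a-3p by 20 bases, all of them complementary. The array carries rno-miR-191b as a separate microRNA, and its mean intensity lay between -1.92 and 1.43, with detection on 0 arrays.

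Plasma holds little RNA, and the scanner software called 137 to 175 of the 758 microRNAs detected per array. A total of 126 microRNAs were detected on all 6 arrays and 557 on none. The median intensity of those 126 was 35.4 in rat 1, 41.8 in rat 2 and 30.1 in rat 3 for arterial plasma. For venous plasma of these rats it was 21.8, 52.9 and 17.2. Venous plasma therefore held both the brightest array, of rat 2, and the 2 dimmest, of rats 1 and 3, and any level of a member depends on how the arrays were brought to a common scale. No spot was saturated.

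rno-miR-425-5p was the only member detected on all 6 arrays. Its mean background-subtracted intensity, averaged over its 2 probes, was 18.2, 11.6 and 13.2 in arterial plasma of rats 1, 2 and 3. In venous plasma it was 12.2, 20.7 and 9.20. The arterial mean of 14.3 ± 3.48 and the venous mean of 14.0 ± 5.95 (SD, n = 3 rats) differed by less than this spread, and the groups overlapped. The venous arrays of rats 2 and 3 gave the highest and the lowest value, and these were also the arrays with the highest and the lowest median intensity of the 126 detected microRNAs.

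Both probes of rno-miR-425-5p were printed on 8 spots per array. Of the 96 spots on the 6 arrays, 63 were well above background by the scanner's test and 15 were flagged as outliers and left out. All 81 remaining spots exceeded the 95th percentile of that array's negative control spots, which lay between 2.87 and 3.85. On the probe ending in 1848 the array means ran from 11.3 ± 1.07 (SD over spots; venous, rat 3) to 25.3 ± 1.72 (venous, rat 2), and 44 of 48 spots were well above background. On the probe ending in 1849 the same 2 arrays gave 7.14 ± 0.797 and 16.0 ± 2.14, and 19 of 48 spots were well above background. The probes thus placed the extreme arrays alike. In venous plasma of rat 1 a single unflagged spot of the probe ending in 1849 read 17.5, whereas the other 7 lay between 7.74 and 9.39.

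**Figure D1:**
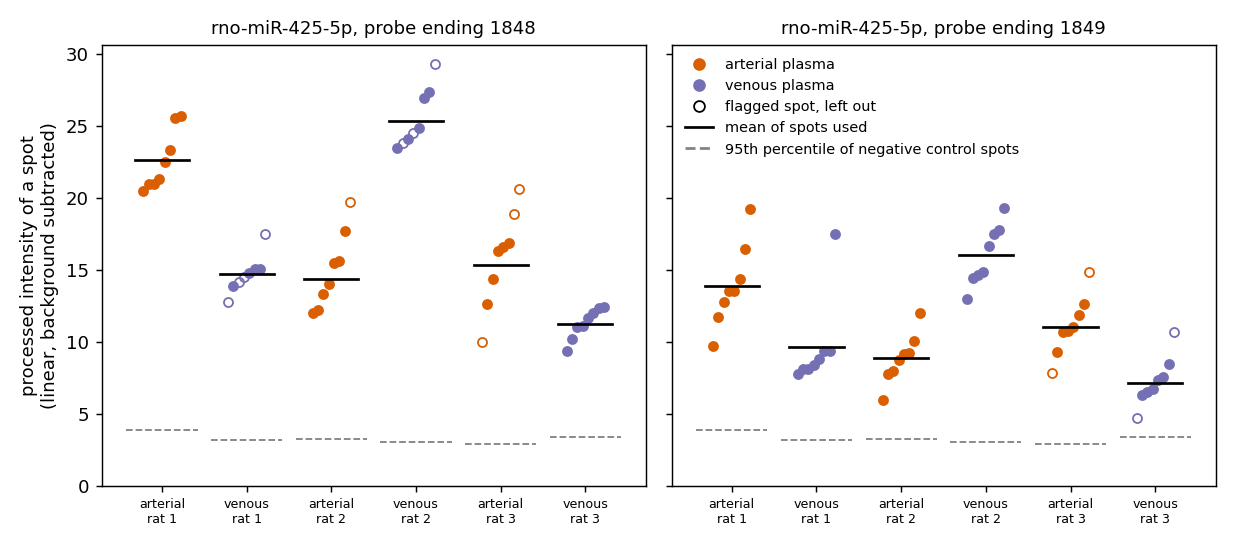
Processed intensity (linear, background subtracted) of every spot of the 2 rno-miR-425-5p probes on the 6 arrays. Filled points are the spots used, open circles flagged spots, black lines the mean of the spots used and dashed lines the 95th percentile of the negative control spots of that array; every spot used lies above its dashed line, and the highest and lowest means both belong to venous plasma, of rats 2 and 3.

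rno-miR-191a-5p was detected on 2 arrays, namely arterial plasma of rat 1 and venous plasma of rat 2. Its mean intensity over 4 probes was 4.26, 1.095 and 1.93 in arterial plasma and 2.75, 3.25 and 0.223 in venous plasma of rats 1, 2 and 3. The means of 2.43 ± 1.64 and 2.08 ± 1.62 (SD, n = 3 rats) overlapped over most of their range. Only 3 of its 96 spots were well above background, and all 3 belonged to the probe ending in 1433. Both detection calls came from that probe as well.

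The scanner software called a microRNA detected when the total signal of any of its probes exceeded 3 times its error, a rule that returned the deposited call in 4548 of 4548 combinations of microRNA and array. For the probe ending in 1433 this ratio was 4.06, 1.68 and 1.34 in arterial plasma and 2.52, 3.31 and 1.26 in venous plasma of rats 1, 2 and 3. The probe ending in 1434 reached 2.35 at most. The probes ending in 1431 and 1432 stayed between -1.25 and 0.842 and between -0.560 and 0.249, so signal for this strand came from part of its probe set. For rno-miR-425-5p the ratio was 4.91 to 6.80 on one probe and 3.29 to 5.06 on the other, above the limit on every array.

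The 3p strands were not detected on any array. rno-miR-191a-3p had a mean intensity of 4.55, 3.96 and 2.06 in arterial and of 3.11, 3.45 and 3.07 in venous plasma of rats 1, 2 and 3. rno-miR-425-3p gave 1.55, 0.415 and 2.24 in arterial and 1.02, 2.40 and 2.77 in venous plasma. For each of them 1 of 96 spots was well above background, and the highest ratio of signal to error was 2.56 and 1.98. No fold is given between vessels for these strands, since both groups were below detection; a low level cannot be told apart from absence at this brightness, and the levels of different probes cannot be set against each other.

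**Figure D2:**
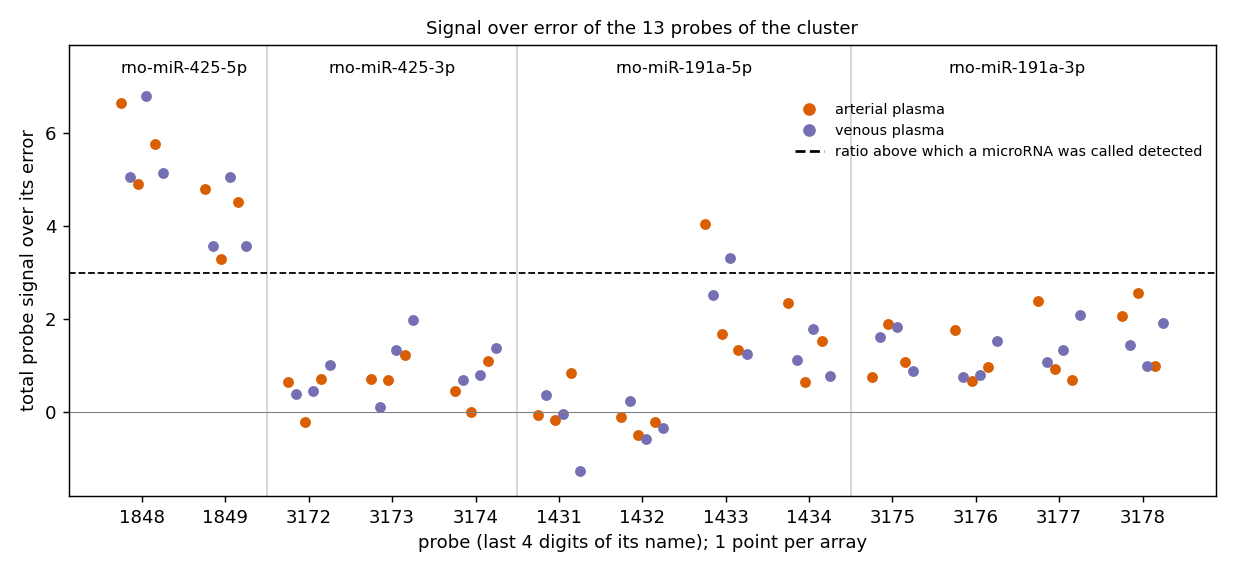
Total probe signal divided by its error for the 13 probes of the cluster, 1 point per array, arterial in orange and venous in purple; the dashed line at 3 is the limit above which a microRNA was called detected. Both rno-miR-425-5p probes lie above the line on all 6 arrays, the rno-miR-191a-5p probe ending in 1433 lies above it on 2, and the probes of the 3p strands stay below it.

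The comparison of arterial with venous plasma asks whether plasma drawn from the 2 sides of the circulation carries the same circulating microRNAs. After quantile normalization, rno-miR-425-5p had a log2 intensity of 3.73, 3.39 and 3.83 in arterial plasma of rats 1, 2 and 3. In venous plasma it was 4.01, 3.99 and 4.01. The 3 venous values lay above the 3 arterial ones, with a mean of 4.00 ± 0.014 against 3.65 ± 0.23 (SD, n = 3 rats). Of the 126 microRNAs detected on all arrays, 3 (2.38%) showed this separation on the quantile scale. Quantile normalization gave venous plasma of rats 1 and 3 the same value. The venous SD was 0.28 when arrays were divided by the 75th percentile of their detected microRNAs, and 0.59 without normalization. On both of those scales the arterial and venous values of rno-miR-425-5p overlapped.

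Arterial minus venous, the log2 difference of rno-miR-425-5p was -0.29, -0.60 and -0.19 in rats 1, 2 and 3. On this scale, but not without normalization or in the authors' table, venous plasma read 1.28-fold higher on average, a mean log2 difference of -0.36 (SE 0.120, 95% interval -0.83 to 0.11). It did not pass the cutoff of 0.025 in limma with rat as a block (unadjusted p of 0.0853, Benjamini-Hochberg adjusted p = 1). At that cutoff 2 of 758 microRNAs (0.264%) were higher in venous and 4 (0.528%) higher in arterial plasma, and no member was among them. In limma 0 microRNAs passed an adjusted p of 0.05, and 12 had an unadjusted p under 0.05; the methods' paired t-test gave 0 and 9. An exact two-sided sign-flip permutation test of the 3 differences gave p = 0.25, the smallest that 3 pairs allow. With rno-miR-425-5p counted, 13 of the 126 (10.3%) were lower in arterial plasma of all 3 rats.

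The sign depended on the scale. Without normalization the log2 intensity of rno-miR-425-5p was 4.19, 3.53 and 3.72 in arterial and 3.61, 4.37 and 3.20 in venous plasma of rats 1, 2 and 3, so that it was higher in arterial plasma in rats 1 and 3 and lower in rat 2. The mean log2 difference was then 0.090 (SE 0.439), while the median of the 126 detected microRNAs shifted by 0.40, which leaves -0.31 relative to that median. When each array was divided by the 75th percentile of its detected microRNAs, the differences were -0.25, -0.40 and -0.35. Their mean of -0.33 (SE 0.0409) passed the unadjusted cutoff in limma with a p of 0.0107 but not after adjustment (adjusted p = 1). Under that scaling 4 of 758 microRNAs (0.528%) were higher in venous plasma at the cutoff, and 15 of 126 (11.9%) were lower in arterial plasma in all rats. With the 75th percentile of all microRNAs as the divisor the mean was also -0.33, but rat 3 turned (differences of -0.45, -0.70 and 0.16). In the authors' quantile-normalized table the log2 values were 5.80, 5.77 and 5.98 in arterial and 5.85, 5.86 and 5.82 in venous plasma, and the differences of -0.05, -0.10 and 0.16 did not share a sign. There, 4 of the 126 (3.17%) had all venous values above all arterial ones, and rno-miR-425-5p was not among them.

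**Figure D3:**
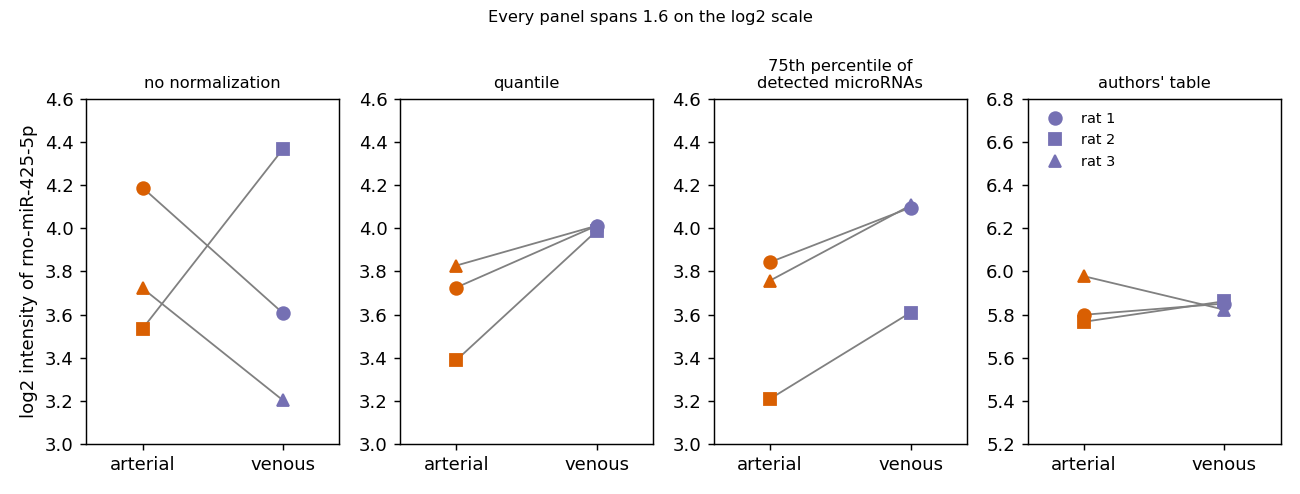
log2 intensity of rno-miR-425-5p in arterial (orange) and venous (purple) plasma on 4 scales, with a line joining both samples of a rat; every panel spans 1.6 on the log2 axis, and the authors' table has its own offset. Arterial values lie below venous ones in all 3 rats after quantile scaling and scaling to the 75th percentile of detected microRNAs, but not with the 75th percentile of all microRNAs (not drawn; rats 1 and 2 alone), without normalization (rat 2 alone) or in the authors' table (rats 1 and 2 alone).

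The probes of rno-miR-425-5p moved the same way after quantile normalization. The log2 difference was -0.31 on the probe ending in 1848, which passed the cutoff by itself (limma, unadjusted p of 0.0213), and -0.24 on the probe ending in 1849, which did not (p of 0.319); the adjusted p was 1 for both. Rats 1 and 2 were hybridised on one slide and rat 3 on another. On the quantile scale the mean log2 difference was -0.44 on the first slide and -0.19 on the second, which held rat 3 alone. The direction was then the same on both, as with the 75th percentile of detected microRNAs. It was not on other scales: rat 3 read 0.16 with the 75th percentile of all microRNAs and 0.16 in the authors' table, where rats 1 and 2 were negative. Without normalization rats 1, 2 and 3 read 0.58, -0.83 and 0.52.

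For rno-miR-191a-5p the log2 intensity after quantile normalization was 1.61, 0.07 and 1.07 in arterial and 2.02, 1.32 and 0.00 in venous plasma of rats 1, 2 and 3, where 0.00 is the floor set under the values. The differences of -0.41, -1.25 and 1.07 did not share a sign. Their mean of -0.19 (SE 0.648, 95% interval -2.75 to 2.37) did not pass in limma (p = 0.790, adjusted p = 1), and the exact permutation test gave p = 0.75. The interval spans several-fold changes in either direction, and only 1 array of each vessel had detected this strand.

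Among the 126 microRNAs detected on all arrays, the SD of rno-miR-425-5p over the 6 arrays, 0.24 on the log2 scale, ranked 22nd from the lowest. The median SD was 0.43 and the range 0 to 1.24. Its arterial minus venous log2 difference on the quantile scale ranked 27th by size, where the median difference was -0.004 and the range -0.87 to 1.16. That place depended on the scale: the difference ranked 33rd from the largest with 75th percentile scaling and 113th without normalization. In the authors' table its difference was 0.0027, where the median size of the difference over the 126 was 0.094. The rank of its SD was 45th with 75th percentile scaling (SD 0.34), 17th without normalization (SD 0.43) and 7th in the authors' table (SD 0.073). In the authors' table the median SD of the 126 was 0.22, and rno-miR-191a-5p, detected on 2 arrays, had an SD of 0.062. The rno-miR-425-5p probes read 45.9 to 69 there, beside column medians of 38.5 to 42.3. A low SD in that table thus does not by itself show a steady level.

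A list of 10 microRNAs used as references in plasma was set beside it, and 9 of these were detected on all arrays. Their SDs ran from 0.20 to 0.60, and rno-miR-30e-5p alone had a lower SD than rno-miR-425-5p. The place of rno-miR-425-5p among them depended on the scale: with 75th percentile scaling 5 of the 9 had a lower SD, and 0 did without normalization or in the authors' table. The median log2 difference was -0.06 over the 9 and -0.09 over all 10. None passed the cutoff in the main fit, which was limma with rat as a block on quantile-normalized values of all 758 microRNAs. Under other quantile-normalized settings rno-let-7a-5p passed with flagged spots kept (limma, unadjusted p of 0.0122). rno-miR-484 passed with the median of spots (limma, unadjusted p of 0.00127). rno-miR-93-5p, a strand of the miR-106b-25 cluster, was lower in arterial plasma of all 3 rats, with differences of -0.18, -0.92 and -0.30. It did not pass in the main fit but passed the unadjusted cutoff with 75th percentile scaling (limma, p of 0.0179, adjusted p = 1). It also passed in the authors' table (limma, p of 0.0120, adjusted p = 0.890) and with normexp (limma, p of 0.0223). rno-miR-423-5p was the only one higher in arterial plasma of all 3 rats, and it passed the unadjusted cutoff in the authors' table (limma, p of 0.00201, adjusted p = 0.305) and without the rat block (p of 0.0158). It passed under 9 alternatives to the main fit, among them normexp (limma, p of 0.0111) and flagged spots kept (limma, p of 0.00927). With the authors' values, 8 of the 758 microRNAs (1.06%) passed that cutoff with more signal in arterial plasma and 4 (0.528%) with more in venous plasma.

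**Figure D4:**
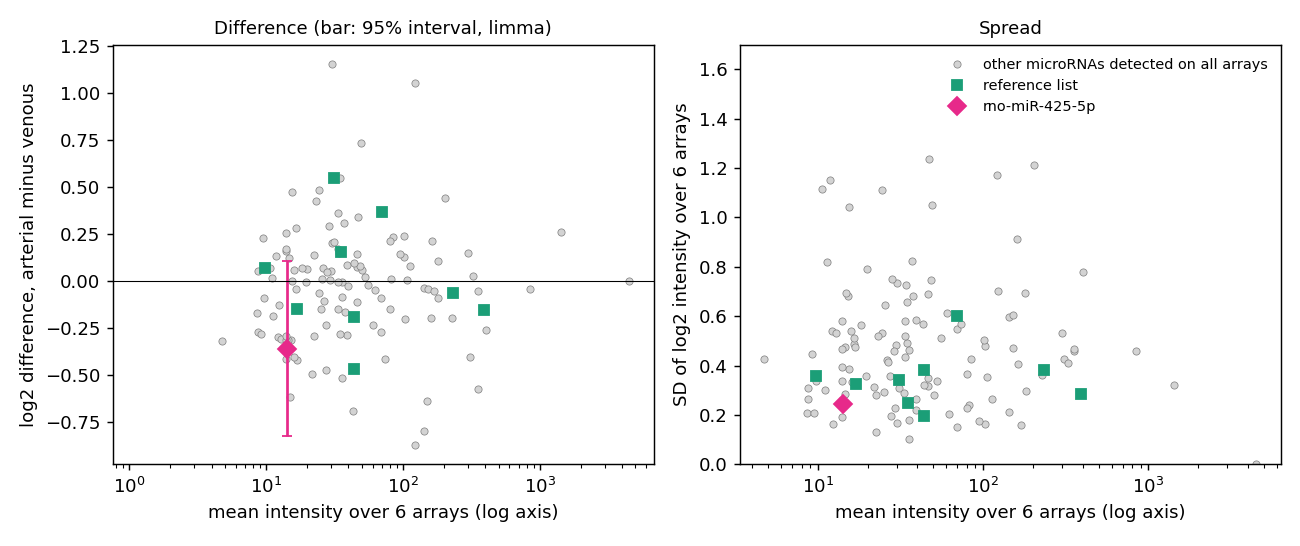
Arterial minus venous log2 difference (left, with the 95% limma interval of rno-miR-425-5p) and SD of log2 intensity over the 6 arrays (right) against mean intensity on a log axis, for the 126 microRNAs detected on all arrays after quantile normalization. rno-miR-425-5p (pink) sits at a difference of -0.36 and an SD of 0.24, above that of 1 of the 9 reference microRNAs (green) on this scale and of 5 with 75th percentile scaling. Its difference was 0.090 (SE 0.439) without normalization and 0.0027 (SE 0.0625) in the authors' table.

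Blood cells can release microRNAs into plasma during sampling, so marker lists were read beside rno-miR-425-5p. Of 6 erythrocyte microRNAs, 5 were detected on all arrays and rno-miR-144-5p on none, and the summed intensity of the 5 was 2436 to 2751 in arterial and 924 to 3883 in venous plasma. After quantile normalization the median log2 difference of the 5 was -0.24, -0.45 and 0.23 in rats 1, 2 and 3, against -0.29, -0.60 and -0.19 for rno-miR-425-5p. All 6 platelet and leukocyte microRNAs were detected on all arrays, with sums of 741 to 859 in arterial and 465 to 1082 in venous plasma and medians of -0.19, -0.20 and 0.45. On this scale, and with the 75th percentile of detected microRNAs, both lists thus had the sign of rno-miR-425-5p in rats 1 and 2 and the opposite sign in rat 3. Without normalization all signs matched. The medians were then 0.51, -0.61 and 1.18 for the 5 erythrocyte microRNAs and 0.51, -0.51 and 1.12 for the other list. rno-miR-425-5p had 0.58, -0.83 and 0.52. The median difference of the 126 microRNAs detected on all arrays had the same signs, at 0.63, -0.29 and 0.84. No member of either list passed the cutoff in the main fit. rno-miR-150-5p, a lymphocyte microRNA, was nevertheless lower in arterial plasma of all 3 rats, with differences of -0.22, -0.40 and -0.58. It passed the unadjusted cutoff with 75th percentile scaling, as rno-miR-425-5p did (limma, p of 0.00356, adjusted p = 1), and in the authors' table, where rno-miR-425-5p did not (p of 0.000232, adjusted p = 0.0878). rno-miR-150-5p also passed with the median of probes (limma, p of 0.00687) and with normexp (limma, p of 0.00191). rno-miR-92a-3p of the erythrocyte list passed in the authors' table as well (p of 0.0226). The part of blood cell RNA in the values of the cluster was not tested.

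The microRNAs whose log2 intensity ran most like that of rno-miR-425-5p over the 6 arrays were rno-miR-486, an erythroid microRNA (Pearson's r = 0.930), rno-miR-93-5p (r = 0.834) and rno-miR-17-5p of the miR-17-92 cluster (r = 0.824). The median r of all 124 compared was 0.039 and the range -0.93 to 0.93, and the arrays came in pairs from 3 rats and shared 1 normalization. rno-miR-486 read 7.59 to 8.61 in arterial and 8.61 to 8.84 in venous plasma, with differences of -0.23, -1.02 and -0.47. The other detected members of the erythrocyte list did not share its sign in rat 3 on the quantile scale. There, rno-miR-451-5p, rno-miR-144-3p and rno-miR-16-5p were higher in arterial plasma, and rno-miR-92a-3p did not differ. In rats 1 and 2 these members had the sign of rno-miR-486, apart from rno-miR-451-5p, which did not differ. Of rno-miR-486, rno-miR-93-5p and rno-miR-17-5p, 2 were again the most alike without normalization and 0 with 75th percentile scaling.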

How the data were processed

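The authors deposited Agilent Feature Extraction output for each array, and the unit used is the processed spot intensity (linear, background subtracted). Labels name version 11.0.1.1 and the file headers 10.7.3.1. Plasma was collected with EDTA, spun and filtered before RNA extraction and Cy3 labelling. The authors' series table holds intensity values that they quantile normalized in GeneSpring; its column medians of 38.5 to 42.3 are close but not identical, and the reason is not given in the sources used here.

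Flagged spots (8.72 to 10.4% per array) were left out, spots and then probes were averaged, and the 758 microRNAs were quantile normalized, floored at 1 and log2 transformed. limma 3.58.1 (R 4.3.3) was fitted over all of them with rat as a block, with the methods' unadjusted cutoff of 0.025 and an adjusted 0.05. It was tested on simulated data. The number of arrays limits the precision. Pairing uses the replicate number in the sample titles, which was taken as the rat number: deviations of samples of the same rat correlated at 0.635 to 0.799.

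Members and lists were chosen with earlier results of these data known, and the median of spots was added after seeing the data. The text names the 4 members, the 3 detected microRNAs most correlated with rno-miR-425-5p, and listed microRNAs where they are counted; 2 microRNAs that share a seed or the locus were added. Sequences and positions are RefSeq's on GRCr8 and were matched by name; the file headers name another build, which gave no coordinates here. A planned test between rno-miR-191a-5p and rno-miR-425-5p was not run, since the former was not detected on all arrays.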

Additional observations from a re-analysis of the deposited data

How the results depend on the processing

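The log2 difference of rno-miR-425-5p kept its direction and its side of the cutoff under 16 of 20 alternatives, among which normexp with an offset of 50 gave a much smaller -0.050. Some of these could not change the difference of -0.36. They refitted the same values over fewer microRNAs, without the rat block, with an intensity trend or by the methods' t-test. The lower floor could not change it either, since rno-miR-425-5p lay above both floors. The difference became 0.090 (SE 0.439) without normalization and 0.0027 (SE 0.0625) in the authors' table. It passed the unadjusted cutoff at -0.33 with 75th percentile scaling over detected microRNAs and at -0.31 with the probe ending in 1848 alone. Leaving out each rat gave -0.44 to -0.24. Without the rat block, the paired analysis became an unpaired one with the same difference of -0.36 (limma, unadjusted p of 0.0485), and no call on a member changed. Its SD moved to 0.34 with 75th percentile scaling, 0.43 without normalization and 0.073 in the authors' table. The difference of rno-miR-191a-5p turned to 0.0038 without normalization, 0.16 with the total gene signal, 0.75 with a floor of 0.1 and 0.16 with the probe ending in 1431 alone; leaving out each rat gave -0.83 to 0.33, the highest without rat 2. Without normalization the reference list had a median of 0.34 and the platelet and leukocyte list of 0.39, beside a shift of 0.40 of all detected microRNAs. Counts higher in arterial plasma (4) became 2 with the 75th percentile over all microRNAs and with the methods' t-test, 7 with the median of probes, 8 with normexp and in the authors' table, 10 with the lower floor, and 8 to 19 without a rat, the highest without rat 1. Counts higher in venous plasma (2) became 0 over microRNAs detected on all arrays or on at least 1, 1 without normalization, 4 with 75th percentile scaling over detected microRNAs, the median of probes, the median of spots, flagged spots kept or the authors' table, 5 with normexp, and 9 to 14 without a rat, the highest without rat 1. At an adjusted p of 0.05 the count was 1 over microRNAs detected on at least 1 array and 0 otherwise. The cause of these changes was not tested. Normexp was run on the median spot signal. Signal over background limits what can be said: 3 of the 4 members were below detection on most arrays, and rno-miR-191a-5p reached its floor on 1. rno-miR-425-3p, detected on 0 arrays, had an unadjusted p of 0.0349 in the main fit (limma). With the 75th percentile over all microRNAs it passed the unadjusted cutoff (limma, p of 0.0162) but not after adjustment. No difference is read from it, since all its values lay below detection.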
